A study of Mus musculus with 79 samples.

Results

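The whole lumbar dorsal root ganglion was described 7 d after sciatic nerve crush, against uninjured (naive) ganglia. The 11 libraries were chosen by their labels, as all Input (total RNA) libraries at 7 d (4) and all naive Input libraries (7), of 79 libraries in the series. Every mouse carried the BAC-TRAP BR145-GFP transgene, the naive mice included. The 7 d group had both sciatic nerves crushed 7 d before the L4-5 ganglia were taken, and the naive group had no crush that the labels name. Input libraries of the intermediate times entered the same model of 40 libraries, with groups of 5 to 7, among them 7 libraries taken at 72 h. IP libraries, made from RNA recovered with the GFP tag, were used in 1 comparison, with 7 naive and 4 libraries at 7 d. Neither age, sex nor the promoter that drives the transgene is in the labels, and nothing says that libraries came from separate animals, so p-values measure the spread between libraries.

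Dorsal root ganglia hold the cell bodies of sensory neurons, each wrapped in satellite glial cells, together with Schwann cells, macrophages, fibroblasts and vessels. When the peripheral axon is cut or crushed, the neuron switches on injury transcription factors such as Atf3, Jun and Sox11, and with them genes for growth cone proteins, peptides and surface receptors. The cell body must also make, fold and export membrane and secreted proteins and lipids for the regrowing axon, work that is done in the endoplasmic reticulum (ER).

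The libraries held 18233098 to 22221882 gene counts at 7 d and 9869384 to 16912222 in naive ganglia. Rn45s is the precursor of ribosomal RNA and Lars2 a mitochondrial leucyl-tRNA synthetase gene to which ribosomal reads can align. Together they took 2.02%, 2.74%, 2.29% and 1.64% of the counts in the 7 d libraries. In the naive libraries the percentage was 4.70% at the lowest, 14.9% at the median and 23.6% at the highest, so the groups did not overlap. The difference in means was -11.64 percentage points (exact 2-sided permutation test, p = 0.00606). Across the other Input times the lowest library held 2.61%, and at 72 h the range was 5.71% to 19.3%. The percentage therefore moved with the 7 d group, and the counts against naive below are given without it and with it as a covariate of the model. The slope of that covariate comes from all 40 Input libraries, and 3 of the 4 libraries at 7 d lie below every other one. The check of tissue identity gave summed pan-neuronal levels of 24449 to 28793 CPM (counts scaled to the depth of each library) at 7 d and 22447 to 28825 CPM in naive ganglia, which overlap.

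**Figure D1:**
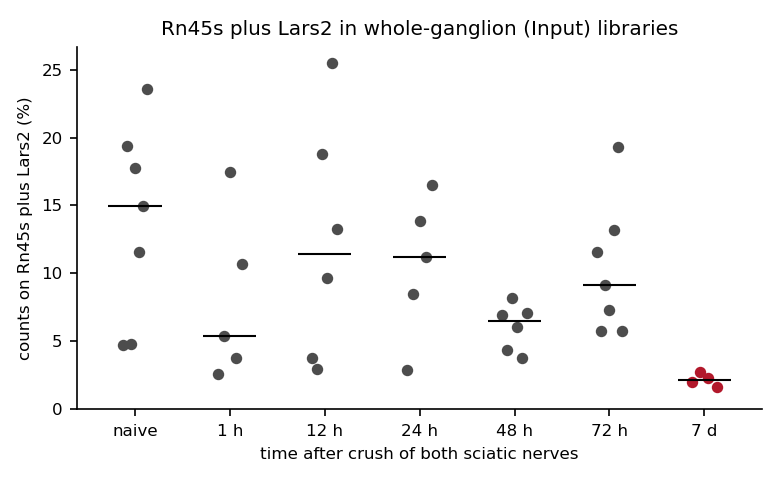
Percentage of gene counts on Rn45s plus Lars2 in each Input library (points) by time after crush, with the group median as a line. The 4 libraries at 7 d (red) lie between 1.64% and 2.74%, and the 7 naive libraries between 4.70% and 23.6%.

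Whole ganglia differed widely at 7 d. Of 16217 genes 8668 passed an adjusted p of 0.05 in edgeR's quasi-likelihood test, which is 53.5% of those tested, 4596 (28.3%) higher and 4072 (25.1%) lower. With the covariate 7659 passed (47.2%), 3979 higher (24.5%) and 3680 lower (22.7%). Against naive replicates 1 and 3 alone, the naive libraries of lowest Rn45s plus Lars2 percentage, chosen after seeing the data, 5911 of 16656 passed (35.5%), 2976 higher (17.9%) and 2935 lower (17.6%). When the test asked for a fold above 1.5, also chosen after seeing the data, 4164 passed (25.7%), 2245 higher (13.8%) and 1919 lower (11.8%). Of the calls with and without the covariate, 6399 were called in the same direction in both fits, 73.8% of the calls made without the covariate and 83.5% of those made with it, and 1 was called in opposite directions. Among genes that changed at least 4-fold, 460 of 496 that were higher and 291 of 396 that were lower were also called with the covariate. All 4 libraries at 7 d were above all 7 naive libraries for 3338 genes (20.6%) and below them for 2550 (15.7%). The median change over all genes was 0.03 on the log2 scale without the covariate and 0.02 with it. All changes of named genes below are log2 differences of 7 d minus naive ± SE, and levels are CPM scaled by trimmed mean of M values (TMM). The SE was derived as the absolute change divided by the square root of the test's F statistic. For genes with few naive counts, such as Cckbr, it is narrower than the interval from counting error alone.

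**Figure D2:**
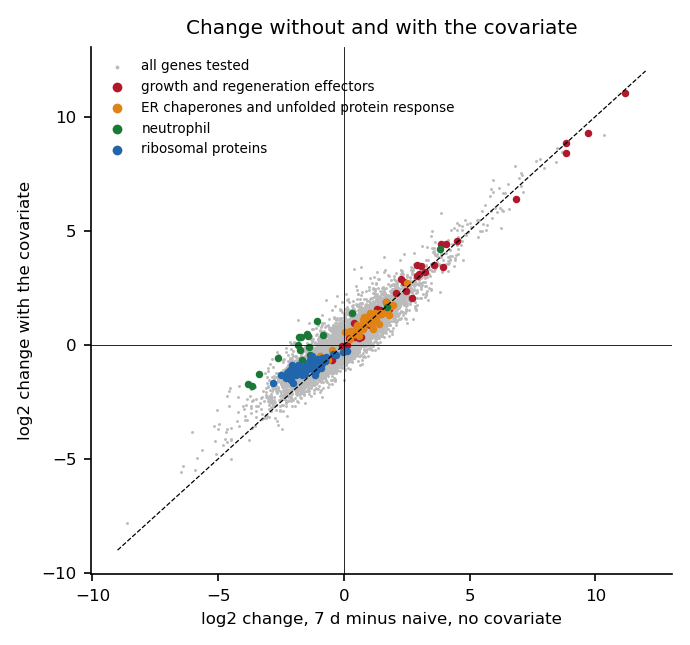
Log2 change of each gene at 7 d against naive, without (x axis) and with (y axis) the Rn45s plus Lars2 percentage as a covariate. Grey points are the 16217 genes tested, colours mark 4 gene lists, and the dashed line is equality. Growth and ER genes lie near the line, and neutrophil genes and ribosomal protein genes lie above it on its left side.

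Cckbr, the receptor for gastrin and cholecystokinin, had the highest fitted rise of the 16217 genes. Its level was 72.3, 68.2, 82.1 and 69.2 CPM in the 4 libraries at 7 d, and 0 at the lowest, 0 at the median and 0.116 at the highest in the naive libraries. A single naive library held both of its naive counts (2), against 6617 at 7 d. The ratio of these counts per depth was 3089.7, with a 95% counting interval of 855 to 25518. The fitted change was 11.17 ± 0.43 (adjusted p = 2.9e-24) and 11.01 ± 0.47 with the covariate. Its gene lies on chromosome 7 at 105425676 to 105436339 (GRCm38.p6). At 72 h it had reached 12.7 to 22.4 CPM, and the later step from 72 h to 7 d was 2.03 ± 0.24 (adjusted p = 1.7e-09).

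Ecel1 encodes an endopeptidase of the neprilysin family that is known as a nerve injury gene, and lies on chromosome 1 at 87142874 to 87157085. Levels were 195, 190.3, 162 and 178 CPM at 7 d, while the naive libraries stood at 0.0580 at the lowest, 0.215 at the median and 1.85 at the highest. All 4 libraries at 7 d were far above every naive library, a rise of 8.83 ± 0.44 (adjusted p = 3.2e-19) that was 8.83 ± 0.50 with the covariate. From 72 h, when it ranged over 30.7 to 61.5 CPM, it rose by a further 2.21 ± 0.30 (adjusted p = 1.1e-07).

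**Figure D3:**
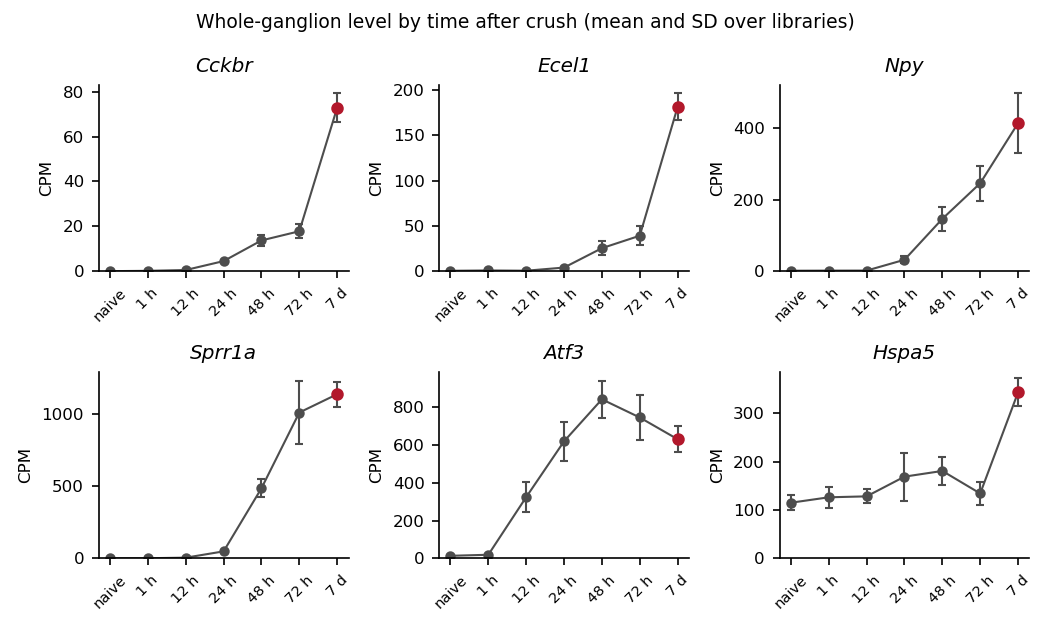
Mean level in CPM and SD over the Input libraries of each time after crush for 6 genes. Cckbr and Ecel1 are highest at 7 d (72.9 and 181 CPM), Hspa5 stands at 344 CPM at 7 d against 115 to 181 CPM in the other groups, and Atf3 is highest at 48 h (840.2 CPM).

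Of 19 injury transcription factors, 13 rose and 1 fell without the covariate, with a median change of 0.82 against 0.03 over all genes, and the counts were 13 and 1 with it. Atf3, a stress-induced factor that binds as a dimer with Jun proteins, stood at 547, 607, 707 and 657 CPM at 7 d, and in naive ganglia at 8.70 at the lowest, 13.5 at the median and 19.1 at the highest. It rose by 5.52 ± 0.18 (adjusted p = 4.9e-27) and its 7 d libraries did not reach down to any naive library. Sox11, a factor of embryonic neurons that returns after injury, was 92.6, 126, 136 and 86.0 CPM at 7 d and 13.7 to 20.7 CPM in naive ganglia, a rise of 2.75 ± 0.20. It had been higher at 72 h, by -1.03 ± 0.20 for 7 d minus 72 h (adjusted p = 4.0e-05). The growth-linked factor Smad1 rose by 1.31 ± 0.11 and Arid5a, an RNA-binding regulator of inflammatory transcripts, by 2.35 ± 0.20.

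Among 41 growth and regeneration effectors 33 rose and 2 fell, with a median of 1.80, and with the covariate 34 rose and 2 fell, with a median of 1.86. Sprr1a, a small proline-rich protein known from regenerating axons, was measured at 1027, 1173, 1235 and 1124 CPM at 7 d and at 0 at the lowest, 0.539 at the median and 6.80 at the highest in naive ganglia. This was a rise of 9.70 ± 0.56 (adjusted p = 3.0e-16), and the difference of 7 d minus 72 h, 0.17 ± 0.41, did not pass (adjusted p = 0.76). Gpr151, an orphan receptor of injured sensory neurons, had 128, 139, 161 and 179 CPM at 7 d and 0 to 1.17 CPM in naive libraries, a rise of 8.82 ± 0.38. Csf1, the cytokine that injured sensory neurons release to act on microglia and macrophages, stood at 175, 161, 169 and 202 CPM against 5.16 to 10.8 CPM in naive ganglia. It rose by 4.49 ± 0.20 (adjusted p = 5.1e-22) and by a further 1.77 ± 0.18 after 72 h. Itga7, the laminin receptor subunit that neurons use to grow on basal lamina, rose by 3.60 ± 0.17, from 44.7 to 68.9 CPM to 548 to 809 CPM. The matrix proteases Mmp16 and Adam8, from a list of 44 matrix and remodelling genes of which 21 rose and 3 fell (25 and none with the covariate), rose by 3.92 ± 0.20 and 3.97 ± 0.24.

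The start of Sprr1a is shown because it held the AP-1 motif, the element bound by dimers of Jun with Fos or ATF proteins, more than once. The 250 bases before its annotated start (RefSeq, GRCm38.p6, chr3:92485882-92486131, minus strand) held the letters TGAGTCA at 2 places, in capitals. Counted from the start, their centres lie at -143 and -113.

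Sprr1a: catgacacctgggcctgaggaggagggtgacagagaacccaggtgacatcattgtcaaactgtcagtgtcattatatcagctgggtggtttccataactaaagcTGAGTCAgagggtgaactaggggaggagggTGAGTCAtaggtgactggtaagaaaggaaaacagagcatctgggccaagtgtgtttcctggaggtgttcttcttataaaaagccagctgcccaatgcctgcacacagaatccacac

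The motif was searched on both strands of windows of 250 bases before to 50 after each start (the reverse complement being TGACTCA), as were those described further on, and no element found in these gene lists overlaps another. It was present in 3 of the 28 growth effectors with a window (Sprr1a, and Plaur and Anxa2, named after their values were seen), and in 5.95% of 27025 genes with one. All 3 rose, and so did 23 of the other 25. Over all tested genes that hold the motif, these 3 included, 196 of 593 were higher and 119 lower. A match is a stretch of letters, not a measured binding site.

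Other genes among the 12 largest rises by the naming rule (a mean of at least 5 CPM in the higher group and no overlap) came from varied families. Lipn, a lipase of the acid lipase family, had no naive count and 974 counts at 7 d (12.9, 9.31, 8.19 and 12.5 CPM), at least 303.2-fold higher against a floor of 3 counts summed over the naive group. Cyp24a1, the vitamin D hydroxylase, had 3 naive counts, and a ratio of 7 d to naive of 163.7 with a 95% counting interval of 55.7 to 796.5. Anxa10, an annexin, rose by 7.06 ± 0.61 and Slc6a4, the serotonin transporter, by 7.05 ± 0.58. Fgf3, a fibroblast growth factor, rose by 6.84 ± 0.41 and the leak potassium channel Kcnk16 by 6.00 ± 0.57. All of these had 7 d libraries above every naive library, and each was also called with the covariate.

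**Figure D4:**
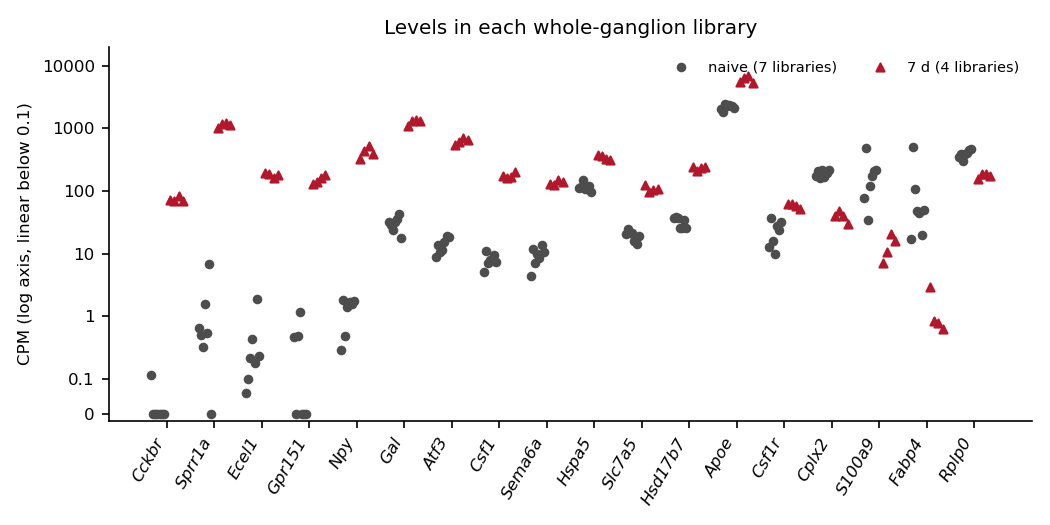
Level in CPM of 18 genes in each naive (grey circles, 7) and 7 d (red triangles, 4) Input library, on a log axis that is linear below 0.1. The 7 d libraries lie above all naive libraries for the first 14 genes and below them for Cplx2, S100a9, Fabp4 and Rplp0.

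Of 19 neuropeptide genes tested 9 rose and 3 fell, and the counts were the same with the covariate. Npy, which naive sensory neurons hardly express, was at 322, 429.6, 521 and 385 CPM at 7 d and at 0.290 at the lowest, 1.55 at the median and 1.81 at the highest in naive ganglia. It rose by 8.46 ± 0.43 (adjusted p = 2.5e-18). Gal, the galanin precursor, stood at 1108, 1304, 1344 and 1302 CPM, against 17.6 at the lowest, 31.5 at the median and 42.3 at the highest in naive libraries. That rise of 5.39 ± 0.19 (adjusted p = 1.8e-25) left it below its level at 72 h by -0.58 ± 0.18 (adjusted p = 0.0071). Crh, the corticotropin-releasing hormone, rose by 8.68 ± 0.42 and Adcyap1, the precursor of the peptide PACAP, by 2.42 ± 0.13. The 3 that fell were chosen for naming after their values were seen, namely Tac1, the substance P precursor (-0.77 ± 0.18), Nmb (-1.46 ± 0.30), the precursor of neuromedin B, and Cartpt (-1.37 ± 0.22), that of the CART peptide.

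Genes of electrical excitability moved in both directions. Of 28 sodium and calcium channel genes 8 rose and 4 fell without the covariate, and 12 rose and 2 fell with it, with medians of -0.05 and 0.37. Over all genes 28.3% rose and 25.1% fell without it, and 24.5% rose and 22.7% fell with it. The rises of this list without the covariate were thus near the general share. Cacna2d1, the calcium channel subunit that binds gabapentin, was 278, 311, 359.8 and 315 CPM at 7 d and 47.6 to 87.5 CPM in naive ganglia. It rose by 2.26 ± 0.20 and by 2.86 ± 0.14 with the covariate. The auxiliary subunits Cacng5 and Scn3b rose by 2.55 ± 0.32 and 1.34 ± 0.17. Of 48 potassium and related channel genes 25 rose and 4 fell (21 and 4 with the covariate), and 40 rose and 1 fell against 72 h. The pacemaker channel Hcn3 rose by 1.94 ± 0.20. Of 27 transduction channels 15 rose and 2 fell (13 and 2 with the covariate). P2rx3, the ATP-gated channel of nociceptors, stood at 232, 218, 193 and 217 CPM at 7 d and at 54.0 to 83.2 CPM in naive libraries, and rose by 1.65 ± 0.12. Trpv2, a TRP channel, rose by 1.75 ± 0.13.

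Inhibitory receptors rose more often than they fell, and sensory subtype markers moved in both directions. Over all genes 28.3% rose and 25.1% fell. Of 29 opioid and inhibitory receptor genes 14 rose and 1 fell (12 and 1 with the covariate). The GABA-A subunits Gabra5 and Gabrg1 rose by 3.00 ± 0.23 and 2.50 ± 0.21, and the GABA-B subunit Gabbr2 by 2.30 ± 0.21. Among 38 sensory subtype markers 15 rose and 14 fell, with a median of 0.12. With the covariate 12 rose and 14 fell, with a median of -0.22, and against naive replicates 1 and 3 alone 9 rose and 14 fell. Ret, the signalling receptor for GDNF family ligands, was 722, 540.5, 496 and 671 CPM at 7 d and 109 to 163 CPM in naive ganglia, a rise of 2.18 ± 0.14. Its coreceptor Gfra3 rose by 2.77 ± 0.16 and the BDNF receptor Ntrk2 by 1.18 ± 0.11. Pvalb, the calcium buffer of proprioceptors, fell from 328 to 541 CPM to 89.1 to 130.4 CPM, a change of -2.18 ± 0.21. In bulk RNA fewer cells of a type and less RNA per cell cannot be told apart.

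Of 52 axon guidance and adhesion genes 31 rose and 1 fell, with a median of 0.71, and with the covariate 38 rose and none fell, with a median of 1.05. Sema6a, a transmembrane semaphorin, stood at 130.2, 124, 150.2 and 139 CPM at 7 d and at 4.41 at the lowest, 9.79 at the median and 13.9 at the highest in naive libraries. It rose by 3.87 ± 0.20 (adjusted p = 3.8e-20) and by 4.41 ± 0.16 with the covariate. The adhesion molecules Chl1 and Ncam1 rose by 3.06 ± 0.16 and 1.92 ± 0.12. These genes are long, with a median genomic span of 151.9 kb.

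Core neuronal genes did not move as a group. Of 20 pan-neuronal genes 6 rose and 6 fell, with a median of -0.01 (4 and 6 with the covariate). These counts are near the 28.3% higher and 25.1% lower over all genes. Tubb3, a neuronal tubulin, rose by 1.01 ± 0.10 and Rbfox3, which encodes the nuclear protein NeuN, changed by -0.89 ± 0.11. Among 24 tubulin and neurofilament genes 11 rose and 8 fell (9 and 6 with the covariate), led by Tubb6, a tubulin isotype of growing neurites, at 3.93 ± 0.22. Of 34 synaptic vesicle and release genes 17 rose and 8 fell (15 and 9 with the covariate). Cplx2, a clamp of vesicle fusion, went from 163 to 219 CPM to 29.6 to 47.2 CPM, a change of -2.30 ± 0.20 (adjusted p = 1.7e-12).

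Genes of ER folding and the unfolded protein response mostly rose. Of 44 genes tested 36 rose and 4 fell, with a median of 0.97, and with the covariate 38 rose and 2 fell, with a median of 1.05. Hspa5 encodes BiP, the main chaperone of the ER lumen, on chromosome 2 at 34772090 to 34776529. Its level was 375, 361, 323 and 315 CPM at 7 d and 96.4 at the lowest, 113 at the median and 147 at the highest in naive ganglia. The lowest 7 d library lay above the highest naive one, and the change was 1.57 ± 0.14 (adjusted p = 2.2e-12), or 1.38 ± 0.14 with the covariate. At 72 h it ranged from 111 to 173 CPM, so the step after 72 h was 1.35 ± 0.14 (adjusted p = 2.0e-10). Derl1, which extracts misfolded proteins from the ER, rose by 1.44 ± 0.12. The folding enzymes Pdia6 and P4hb rose by 1.22 ± 0.11 and 1.47 ± 0.13, and calreticulin (Calr) by 1.49 ± 0.13.

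The ER stress response element (ERSE) is the known binding site of the unfolded protein response factors ATF6 and XBP1 together with NF-Y. It was searched as CCAAT, 9 bases of any kind and CCACG, on both strands of the same windows. It was found in 8 of the 32 ER genes with a window and in 0.137% of all 27025 genes with one. All 8 rose, with a median of 1.08, as did 21 of the other 24, with a median of 1.06. Over all tested genes that hold it, these 8 included, 10 of 19 were higher and 2 lower. Most of the 10 are thus the ER genes already counted. The 250 bases before the start of Hspa5 (RefSeq, GRCm38.p6, chr2:34771840-34772089, plus strand) are shown with the element in capitals.

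Hspa5: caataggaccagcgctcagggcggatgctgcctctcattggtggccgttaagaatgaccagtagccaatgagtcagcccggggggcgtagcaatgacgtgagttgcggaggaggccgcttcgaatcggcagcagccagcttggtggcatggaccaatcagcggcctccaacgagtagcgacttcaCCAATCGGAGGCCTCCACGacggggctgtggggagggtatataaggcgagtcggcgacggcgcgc

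The elements of 4 further genes are set out with 8 flanking bases on each side, read along the strand that carries the motif. They show the shared ends and the varying 9-base spacer.
Calr: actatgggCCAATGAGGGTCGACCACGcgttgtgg
Pdia6: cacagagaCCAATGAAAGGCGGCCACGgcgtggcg
Syvn1: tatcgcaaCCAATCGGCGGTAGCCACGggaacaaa
Canx: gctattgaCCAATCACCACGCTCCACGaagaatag
Counted from the annotated starts, their centres lie between -153 and -35. Of their genes, chosen for display after their values were seen, the ubiquitin ligase Syvn1 rose by 1.44 ± 0.13 and the lectin chaperone calnexin (Canx) by 0.93 ± 0.13.

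Downstream of folding, 40 of 59 translocon and secretory transport genes rose and 4 fell (40 and 7 with the covariate). The cargo receptor Surf4 rose by 1.55 ± 0.11 and the channel subunit Sec61a1 by 1.91 ± 0.15, from 30.5 to 51.8 CPM to 138 to 165 CPM. Of 39 genes of the integrated stress response and the tRNA synthetases 25 rose and 4 fell (23 and 4 with the covariate). Slc7a5, which imports large neutral amino acids, stood at 123, 96.5, 106 and 109 CPM at 7 d and at no more than 24.7 CPM in any naive library. It rose by 2.47 ± 0.17 (adjusted p = 9.7e-16), and its partner chain Slc3a2 by 1.90 ± 0.14. The letters TTGCATCA, a form of the element that ATF4 and C/EBP proteins bind, were found in 8 of 31 of these genes with a window and in 1.03% of all genes with one. Of the 8, 6 rose, as did 13 of the other 23. Over all tested genes that hold these letters, the 8 included, 33 of 92 were higher and 26 lower. Examples, chosen after their values were seen, are shown with the element in capitals on the strand that carries it.
Chac1: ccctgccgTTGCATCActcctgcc
Aars: cttgagcaTTGCATCAgccgagcc
Nupr1: gggccagaTTGCATCAgacagggc
The glutathione-degrading enzyme Chac1 changed by 1.95 ± 0.24 and the alanyl-tRNA synthetase Aars by 1.07 ± 0.11, while the stress protein Nupr1, which holds the same letters, changed by -1.53 ± 0.27.

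Genes of lipid synthesis mostly rose. Of 25 genes of cholesterol synthesis and uptake 22 rose and 2 fell, with a median of 1.00 (19 and 2 with the covariate, median 0.82). Hsd17b7, an enzyme of the sterol pathway, was 239, 209, 230.0 and 243 CPM at 7 d and 25.5 at the lowest, 34.2 at the median and 39.0 at the highest in naive ganglia. It rose by 2.84 ± 0.13 (adjusted p = 3.3e-21). The squalene epoxidase Sqle rose by 1.65 ± 0.12 and Srebf2, the factor that drives this pathway, by 1.49 ± 0.11. Of 18 fatty acid genes 13 rose and 2 fell (13 and 1 with the covariate). The desaturases Fads1 and Scd2 rose by 1.51 ± 0.12 and 1.38 ± 0.13, while Thrsp, a lipogenic protein, changed by -2.47 ± 0.14.

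**Figure D5:**
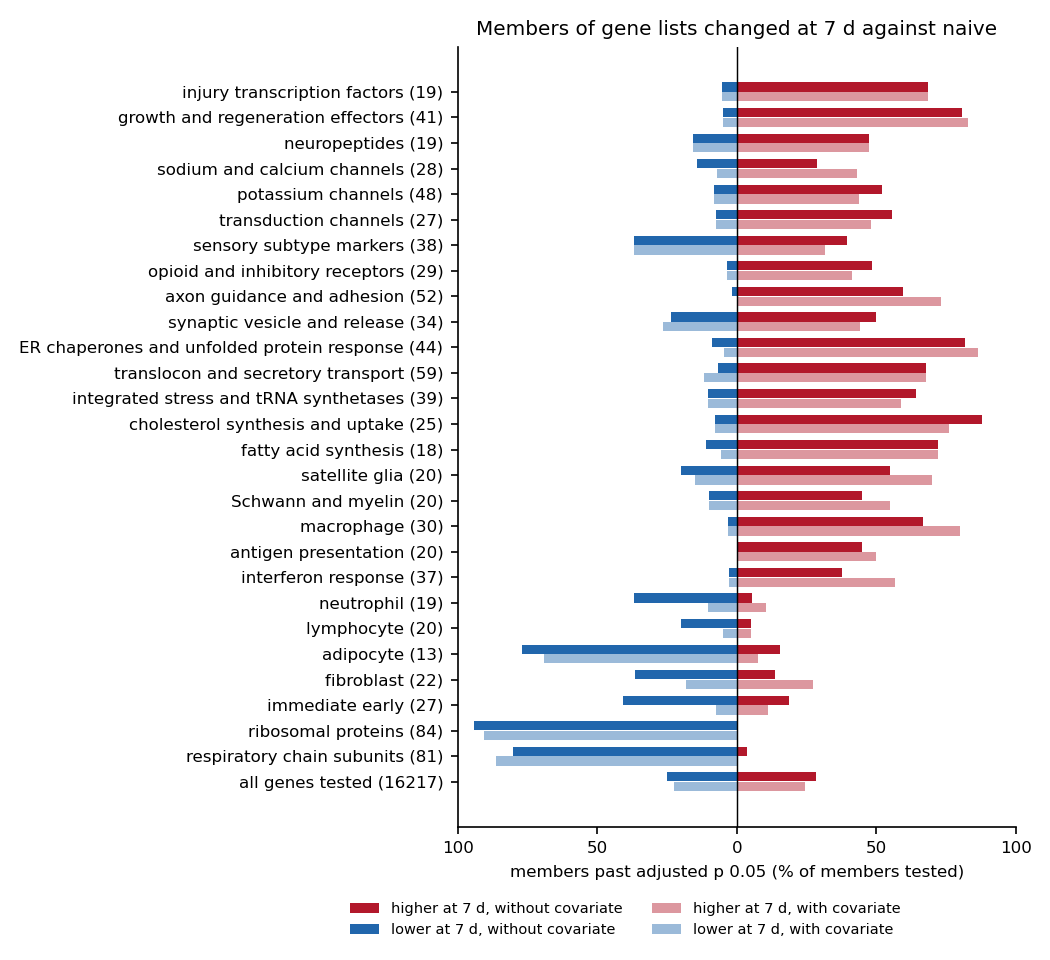
Share of tested members (number in brackets) that were higher (right, red) or lower (left, blue) at 7 d than in naive ganglia, without (dark) and with (pale) the Rn45s plus Lars2 covariate. Cholesterol synthesis (22 of 25), ER (36 of 44) and growth effector genes (33 of 41) lie mostly to the right and ribosomal protein genes (79 of 84) to the left, against 28.3% and 25.1% over all genes.

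Glial genes rose more often than they fell, while over all genes 28.3% rose and 25.1% fell. Of 20 satellite glia genes 11 rose and 4 fell (14 and 3 with the covariate), and their summed level was 7879 to 9697 CPM at 7 d against 4870 to 6523 CPM in naive libraries. Apoe, the main lipid carrier of glia, was 5584, 6509, 6841 and 5375 CPM at 7 d and 1819 at the lowest, 2270.1 at the median and 2471 at the highest in naive libraries, a rise of 1.47 ± 0.13. Ednrb, the endothelin receptor of glia, rose by 1.99 ± 0.20. Of 20 Schwann and myelin genes 9 rose and 2 fell (11 and 2 with the covariate). The signalling protein Dhh rose by 1.91 ± 0.19, while Pmp2, a fatty acid binder of myelin, changed by -1.38 ± 0.24. Of 13 repair Schwann cell genes 7 rose and 1 fell (8 and 1 with the covariate). Jun (1.44 ± 0.12), Bdnf (1.33 ± 0.14) and Ncam1 among them are also known as genes of injured neurons.

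Macrophage genes were more often higher at 7 d than genes at large, of which 28.3% were higher and 25.1% lower. Of 30 tested 20 rose and 1 fell, with a median of 1.05, and with the covariate 24 rose and 1 fell, with a median of 1.36. Csf1r, the receptor for Csf1, stood at 63.3, 62.7, 58.2 and 51.9 CPM at 7 d and at 9.79 at the lowest, 23.9 at the median and 36.5 at the highest in naive libraries. Groups did not overlap, and it rose by 1.38 ± 0.24 (adjusted p = 7.3e-06). C1qc, a chain of complement C1q made by macrophages, rose by 1.48 ± 0.21 and the Fc receptor Fcgr2b by 1.96 ± 0.28. The summed level of the list was 815 to 1384 CPM at 7 d and 349.6 to 826 CPM in naive libraries, and the groups overlapped in that naive replicate 2 lay above 7 d replicate 4. Against 72 h 3 of the 30 were higher and 5 lower.

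Interferon response genes rose for 14 of 37 and fell for 1, and 21 rose and 1 fell with the covariate. Over all genes 28.3% rose and 25.1% fell, and 24.5% rose and 22.7% fell with the covariate. The interferon genes were uneven among the 7 d libraries. Ifit1, an interferon-induced RNA-binding protein, was 29.9, 259.7, 131 and 30.1 CPM in replicates 1 to 4 and 18.9 to 38.3 CPM in naive libraries. Replicates 2 and 3 stood well above the naive range and replicates 1 and 4 within it. Its change was 1.96 ± 0.46 (adjusted p = 4.7e-04), and 1.14 without 7 d replicate 2. Without that library 7 of the 37 rose and 1 fell. Of 20 antigen presentation genes 9 were higher and none lower (10 and none with the covariate), and 6 were higher without that library. Over all genes 4318 were higher and 3762 lower without that library. The interferon list was then under the general share of rises, and the antigen presentation list near it. H2-D1, a class I heavy chain, was 316, 742, 567 and 495 CPM and 160.1 to 347 CPM in naive libraries, with 7 d replicate 1 inside the naive range.

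Neutrophil genes were lower as a list only in the fit without the covariate. Of 19 tested 7 fell and 1 rose without it, with a median of -1.45, and 2 fell and 2 rose with it, with a median of -0.02. Against naive replicates 1 and 3 alone none of 20 fell and 1 rose, with a median of 0.0015. S100a9, an abundant granulocyte alarmin, stood at 7.03, 10.6, 20.3 and 16.0 CPM at 7 d and at 34.9 at the lowest, 171 at the median and 494 at the highest in naive libraries. Its change was -3.81 ± 0.93 (adjusted p = 8.7e-04), and -1.71 ± 0.69 with the covariate (adjusted p = 0.041). Against naive replicates 1 and 3 alone it was -2.11 (adjusted p = 0.12). Summed neutrophil levels were 33.7 to 74.8 CPM at 7 d and 102 to 1185 CPM in naive ganglia, and their part in the other changes was not tested. The member that rose, the protease inhibitor Stfa2, had 25 counts at 7 d and 1 in naive ganglia.

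Adipocyte genes were among the largest falls. Of 13 tested 10 fell and 2 rose (9 and 1 with the covariate), and without naive replicate 2 the counts were 9 and 2. Fabp4, the fatty acid binder of fat cells, was 2.98, 0.846, 0.776 and 0.623 CPM at 7 d and 17.5 at the lowest, 47.9 at the median and 511 at the highest in naive libraries. The change was -6.40 ± 1.14, or -5.16 without naive replicate 2. Summed adipocyte levels were 80.0 to 103 CPM at 7 d, and 1085 CPM in naive replicate 2 and 393 CPM in replicate 3 against 79.3 to 171 CPM in the other 5 naive libraries. At 72 h they were 50.4 to 98.5 CPM, so low summed levels were not particular to 7 d. Against 72 h 2 of the 13 genes were higher and 3 lower. Retn (resistin), Cfd (adipsin) and Adipoq (adiponectin), secreted by fat cells, changed by -6.50 ± 1.28, -5.84 ± 1.17 and -5.91 ± 1.11. The 2 members that rose, Dgat2 and Pnpla2, the latter named after its values were seen, act in triglyceride turnover in many cell types.

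Genes of vessels and connective tissue moved in both directions, several lists here near or under the share over all genes. That share was 28.3% higher and 25.1% lower, and 24.5% and 22.7% with the covariate. Of 19 endothelial genes 5 rose and 2 fell, and 8 rose and none fell with the covariate. For mural and fibroblast genes the balance turned with the covariate. Of 13 mural genes 2 rose and 4 fell without it and 4 rose and 2 fell with it, and of 22 fibroblast genes 3 rose and 8 fell without it and 6 rose and 4 fell with it. Ptgds, a prostaglandin synthase of meningeal fibroblasts, went from 297 to 606 CPM to 24.2 to 97.0 CPM. Of 20 lymphocyte genes 1 rose and 4 fell (1 and 1 with the covariate), and of 6 erythrocyte genes all 6 fell, or 2 with the covariate. Of 15 skeletal muscle genes 2 fell and none rose (1 fell with the covariate). Pvalb, also named above as a proprioceptor marker, is among those that fell and makes up a large part of the summed naive level of the list (382 to 846 CPM). At 7 d, replicate 1 had a summed level of 721 CPM against 142 to 160 CPM in the other 3, and without it 4 fell. Proliferation genes gave 4 higher and 2 lower of 30 against naive (5 and none with the covariate), and 0 higher and 12 lower against 72 h, for example Birc5, a mitotic survivin, at -2.02 ± 0.27 against 72 h. Of 27 immediate early genes 5 rose and 11 fell without the covariate and 3 rose and 2 fell with it. The risers included Atf3 and Fosl1, an AP-1 partner, at 2.61 ± 0.34.

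Most ribosomal protein genes were lower. Their reads can also align to processed pseudogenes, so single members are uncertain. Of 84 tested 79 fell and none rose, with a median of -1.55, and with the covariate 76 fell and none rose, with a median of -1.02. Rplp0, a stalk protein of the large subunit, was 153, 187, 186 and 173 CPM at 7 d and 301 at the lowest, 396 at the median and 474 at the highest in naive libraries. Its change was -1.18 ± 0.13 (adjusted p = 4.7e-10), and -0.94 against naive replicates 1 and 3 alone. Of 81 nuclear-encoded respiratory chain subunits 65 fell and 3 rose, and 70 fell and none rose with the covariate. Ndufb2, a complex I subunit, fell from 395 to 773 CPM to 116 to 177 CPM. The 7 d libraries differed from the 72 h libraries in the same lists, with 83 of 84 ribosomal protein genes and 64 of 81 respiratory chain genes lower.

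Both lists hold short genes. Ribosomal protein and respiratory chain genes have median genomic spans of 3.17 and 7.11 kb. When 14411 genes with a protein-coding RefSeq span were split into 4 equal groups by span, the group of shortest span (up to 10.3 kb) had a median change of -0.19, with 21.9% higher and 35.7% lower. The group from 10.3 to 24.3 kb had a median of 0.12, with 31.3% higher and 22.4% lower. The group from 24.3 to 59.7 kb had a median of 0.17, with 34.2% higher and 18.0% lower. In the group of longest span (up to 2390.4 kb) the median was 0.07, with 30.2% higher and 22.1% lower, so the change did not rise steadily with span. Spearman's rho of change with span was 0.11 across genes, 0.19 with the covariate, and 0.22 for 7 d minus 72 h. Genes are not independent replicates, and these spans include introns. Whether depth, the Rn45s plus Lars2 percentage or another feature of the 7 d libraries has a part in these falls was not tested beyond the covariate, and group and library features cannot be told apart where they do not overlap.

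The 7 d libraries were also compared with those of the preceding time, 72 h. Total counts did not overlap between them (18233098 to 22221882 at 7 d and 11241988 to 16114631 at 72 h). Nor did the Rn45s plus Lars2 percentage (at most 2.74% at 7 d and at least 5.71% at 72 h). A late change and a feature of the 7 d libraries therefore cannot be told apart here. Of 16217 genes 8022 differed (49.5%), 4276 higher (26.4%) and 3746 lower (23.1%). With the covariate 7574 differed (46.7%), 3927 higher (24.2%) and 3647 lower (22.5%). All 7 d libraries lay above all 72 h libraries for 3365 genes (20.7%) and below them for 2697 (16.6%). Genes with large rises by the naming rule included ion channels and protocadherins, adhesion molecules that give neurons surface identity and whose clustered genes share exons, so that their counts are uncertain. Chrna7, a nicotinic receptor subunit, stood at 28.5, 17.6, 17.7 and 28.8 CPM at 7 d and 0.663 to 3.82 CPM at 72 h, a difference of 3.49 ± 0.50. The other differences were 3.27 ± 0.50 for the A-type channel Kcnd1, 3.22 ± 0.50 for Pcdhgc3 and 3.15 ± 0.48 for Pcdhac2. Their covariate-adjusted differences were 2.66, 2.26, 2.71 and 2.27. All 4 were above naive too, and Kcnd1 did not pass against naive replicates 1 and 3 alone (adjusted p = 0.094). By the same rule, the 5 largest falls after 72 h were granulocyte or antimicrobial genes, Wfdc21 (-4.26 ± 0.96), S100a9 (-3.95 ± 0.94), S100a8 (-3.92 ± 0.90), Slpi (-3.62 ± 0.69) and Camp (-3.42 ± 0.91). By list, 25 of 29 opioid and inhibitory receptors, 21 of 27 transduction channels and 16 of 20 Schwann and myelin genes were higher than at 72 h, and the injury transcription factors gave 2 higher and 5 lower of 19.

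The 7 d response of IP RNA was set against that of Input by the difference of both changes. Of 19584 genes 2438 differed (12.4%), 1426 with a higher change in IP (7.28%) and 1012 with a lower one (5.17%). The median difference over all genes was -0.09, and -0.21 with relative log expression scaling. Without Input 7 d replicate 1 the count of genes that differed was 1512. Of ribosomal protein genes 40 of 85 were higher and none lower, with a median difference of 1.02, and 34 of 82 respiratory chain genes were higher and none lower. Of 53 axon guidance genes 16 were lower and none higher. Of 45 ER genes 9 were lower and 1 higher, and Hspa5 differed by -0.91 ± 0.29 (adjusted p = 0.028). On the scale of all 79 libraries its mean ± SD was 109 ± 15.3 and 318 ± 27.6 CPM in naive (n = 7) and 7 d (n = 4) Input, and 131 ± 22.3 and 203 ± 42.7 CPM in naive (n = 7) and 7 d (n = 4) IP. Cckbr also differed, by -3.61 ± 0.95 (adjusted p = 0.0073), with means ± SD of 0.0159 ± 0.042 and 67.5 ± 5.69 CPM in naive and 7 d Input and of 0.386 ± 0.562 and 57.5 ± 15.9 CPM in naive and 7 d IP. With so few counts in naive Input, the fitted difference depends on the prior count. Ecel1 did not pass (-1.51 ± 0.93, adjusted p = 0.3). Genes named for their large differences varied widely among IP libraries, for example the regulator of G protein signalling Rgs11, at 101 ± 62.1 CPM in 7 d IP and 17.4 ± 11.9 CPM in naive IP, a difference of 2.57 ± 0.58. The percentage of counts on Rn45s plus Lars2 was 9.86% to 40.2% in naive IP and 1.37% to 8.16% at 7 d, so it moved with time in both fractions.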

How the data were processed

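Total RNA (Input) and pulled-down RNA (IP) of L4-5 ganglia were amplified with SMART-Seq v4, tagmented with Nextera XT and read as 75 bp pairs, per the labels' protocols. The deposited values are whole-number gene counts that the authors made with bcl2fastq 2.17, STAR and HTSeq on GRCm38/mm10, per the submitters' processing notes. Versions of STAR and HTSeq and the strand setting of the counting are not stated in the labels. Of 24060 rows, 27 with symbols turned into dates were left out (0.12% to 0.21% of counts). A table of LINE intervals was not used here.

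Groups came from the labels. All 40 Input libraries in 7 groups entered 1 edgeR 4.0.16 quasi-likelihood fit (R 4.3.3, TMM scaling, filterByExpr), with Benjamini-Hochberg adjustment over all genes tested and a threshold of 0.05. The covariate fit added each library's percentage of counts on Rn45s plus Lars2. IP minus Input was the difference of both responses in 1 fit of 79 libraries, whose CPM differ slightly from those of the Input fit. Exact permutation over libraries was used for the percentage itself. In simulated counts for 7 d against naive over 16040 genes, 100 genes were changed 2-fold and 100 others 4-fold. Of these 80% and 98% were recovered, with 9 false calls among 187. Far fewer genes were changed than passed in the data, and the groups were given no difference in the Rn45s plus Lars2 percentage. The simulation therefore checks the code and does not give the error rate of the real comparison. Among 48 pairs of libraries within a group none was identical.

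The 12 rising and 12 falling genes with the largest passing fold change, a mean of at least 5 CPM in the higher group and no overlap between groups were eligible for naming, with the 5 and 5 largest of each other comparison, up to 4 passing members of each list, and Cckbr, Ecel1 and Hspa5. Genes named outside the rule are marked so in the text, and results for a few eligible genes are not reported here. The members and lists were chosen with earlier results of these data known. Alternatives were RLE scaling, other filters, Rn45s and Lars2 left out, a replicate block, the compared groups alone, an Xist over Y-linked score, DESeq2 1.42.0, limma 3.58.1 voom, and each library left out. Counting intervals cover counting error only.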

Additional observations from a re-analysis of the deposited data

Results flagged for a closer look

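In 18 of 404 groups of values checked (4.46%), 1 library stood far from the others of its group, and chance flags about 1 in 20. Naive libraries stood apart for Cckbr (0.116 CPM in replicate 1), Ecel1 (1.85 CPM in replicate 6), Cyp24a1 (0.180 CPM in replicate 5), and Slc6a4 (1.08 CPM in replicate 5), all of them far under the 7 d levels, and for Stfa2 (0.0898 CPM in replicate 5, a single count), which stood at 0.188 to 0.345 CPM at 7 d. Naive libraries stood low for Chrna7 (0.118 CPM in replicate 7), Scd2 (463 CPM in replicate 1), the complement gene C4b (9.74 CPM in replicate 1) and Pvalb (328 CPM in replicate 3), and naive replicate 5 stood high for Nupr1 (59.1 CPM). Replicate 1 of the 7 d group stood apart for Fabp4 (2.98 CPM), Gal (1108 CPM), Trpv2 (127 CPM), the fat cell gene Cidea (1.47 CPM), the chemokine Cx3cl1 (11.9 CPM) and the noncoding RNA Gas5 (55.2 CPM). In 7 d replicate 2 the B cell gene Ms4a1 (0.047 CPM) and the T cell gene Cd3d (0.799 CPM) stood above the others.

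The step from 72 h to 7 d was tested itself and passed for genes that rose, Chrna7 (3.49), Kcnd1 (3.27), Pcdhgc3 (3.22) and Pcdhac2 (3.15), and for genes that fell, Wfdc21 (-4.26), S100a9 (-3.95), S100a8 (-3.92), Slpi (-3.62) and Camp (-3.42), all as log2 differences.

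The 7 d response differed between IP and Input by a tested interaction. It was higher in IP for Fam110a (2.82), 2210011C24Rik (2.69), Gm5617 (2.68), Mblac1 (2.63) and Rgs11 (2.57), and lower for Colec10 (-7.997), Aox3 (-7.82), Themis2 (-7.29), Smok2b (-6.75) and St8sia2 (-6.61). The last 5 had group means of at most 8.26 CPM and were uneven in naive IP, where Colec10 had a mean of 5.84 ± 14.7 CPM (SD, n = 7). Without IP naive replicate 6 the difference for Colec10 was -3.65 (adjusted p = 0.141, edgeR) and did not pass. Of the 10 genes, 3 lost the call when 1 library was left out. Besides Colec10 these were Fam110a, without any 1 of Input 7 d replicates 1 to 4, IP 7 d replicate 4, Input naive replicate 7 or IP naive replicates 4 and 5 (1.36 to 2.90, adjusted p = 0.055 to 0.391), and Smok2b, without Input 7 d replicate 1 or 2, IP 7 d replicate 3 or 4 or IP naive replicate 6 (-6.64 to -5.995, adjusted p = 0.0529 to 0.14). Mblac1 lost it with the replicate block and the covariate together (2.15, adjusted p = 0.0527).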

How the results depend on the processing

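The counts of genes that differed stayed within 1.5 times of the reported value in each of the 3 comparisons under every alternative set out in the methods, except when Input 7 d replicate 1 was left out of IP minus Input. For 7 d against naive they were 5813 (both groups alone with the covariate) to 8948 (limma voom), and 8928 with DESeq2. Only the test against a fold of 1.5, chosen after seeing the data, gave fewer (4164). Leaving out 1 library gave 7751 to 8809 for naive, 6990 to 7961 for 72 h and 1512 (without Input 7 d replicate 1) to 2896 (without IP naive replicate 3) for IP minus Input. The difference in the Rn45s plus Lars2 percentage ran from -13.16 to -10.01. Replicate numbers did not meet the criterion for pairing libraries, a correlation of deviations over 0.1 in every pair. Correlations were -0.12 to 0.09 between 7 d and naive Input and 0.05 to 0.16 between Input and IP at 7 d, where 3 of 4 libraries correlated best with their own number, a hint that numbers may pair them there. Between naive Input and IP they were -0.11 to 0.16, and 1 of 7 was best with its own number. The log2 Xist over Y-linked score differed in sign for naive number 1 (-5.17 in Input, 6.94 in IP) and number 2 (5.02 and -5.29). It also did so for naive number 6 (-3.30 and 3.49). Numbers therefore do not pair these naive libraries. At 7 d the sign differed only for number 2 (-0.677 in Input, 0.650 in IP), where both values were small. A replicate block gave 8276, 7564 and 2115 genes. With the block and the covariate together there were 7535, 7537 and 1773. Of 201 named genes 197 passed against naive, and 42 of these lost the call under some alternative, 13 with the covariate and 31 against naive replicates 1 and 3 alone. Among genes in the text the covariate ended the call against naive for Camp, Slpi, Birc5 and Pnpla2. Naive replicates 1 and 3 alone ended it also for S100a8, S100a9, Wfdc21, Kcnd1, Tac1, Nmb, Anxa2, Rn45s and Lars2. Cd3d, at -1.83, turned to 0.098 in both groups alone with the covariate and to 1.19 against naive replicates 1 and 3. The cause was not tested. Groups of 4 and 7 libraries, and a Rn45s plus Lars2 percentage that does not overlap between them, limit what the covariate can separate.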

Other observations

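Cytokine and complement genes gave calls in both directions. Of 37 cytokine and chemokine genes 14 rose and 4 fell (18 and 1 with the covariate), against 28.3% higher and 25.1% lower over all genes. Cx3cl1, a neuronal chemokine that acts on macrophages and microglia, was 11.9, 10.3, 10.4 and 10.3 CPM at 7 d and 2.04 to 5.19 CPM in naive libraries, a rise of 1.57 ± 0.26. Il6, an injury-induced cytokine, was low throughout, at 0.913 to 2.24 CPM at 7 d and 0 to 0.824 CPM in naive libraries, and passed as higher. Of 27 complement and alarm genes 9 rose and 9 fell (10 and 7 with the covariate). The complement component C4b was 84.9, 99.9, 85.6 and 67.4 CPM at 7 d and 9.74 to 22.8 CPM in naive libraries, and rose by 2.12 ± 0.22. S100a11, a calcium-binding protein, rose by 2.37 ± 0.20.

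Of 20 circadian clock genes 3 rose and 8 fell (4 and 5 with the covariate), against 28.3% higher and 25.1% lower over all genes. The clock output factors Dbp and Hlf changed by -1.19 ± 0.16 and -1.88 ± 0.29, and Per3, a repressor of the clock loop, by -1.89 ± 0.34. Nfil3, a repressor that competes with Dbp for the same DNA element, rose by 2.42 ± 0.22, with every 7 d library above the naive maximum of 8.55 CPM. The labels do not give the hour of tissue collection. Of 20 glucocorticoid response genes 3 rose and 7 fell (3 and 4 with the covariate). Cdkn1a, a cell cycle inhibitor, rose by 1.43 ± 0.16 and the metallothionein Mt1 changed by -1.25 ± 0.23. Of 8 mast cell genes 2 rose and 5 fell (2 and 4 with the covariate). The mast cell protease Cma1 changed by -1.79 ± 0.37, while Kit, a receptor that sensory neurons also express, rose by 1.03 ± 0.18. Of 11 nuclear noncoding RNAs 2 rose and 5 fell (2 and 3 with the covariate). Of 7 cartilage and bone genes 1 rose and 1 fell, and of 6 sex-linked genes none passed in either direction, in both fits.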
